A study of Mus musculus with 2 samples.

Results

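The genes described here are 10 extracellular matrix genes among the 17270 genes of the deposited table: fibronectin (Fn1), both chains of type I collagen (Col1a1 and Col1a2), type III collagen (Col3a1), the small leucine-rich proteoglycans biglycan (Bgn), decorin (Dcn) and lumican (Lum), and the matrix glycoproteins fibulin-2 (Fbln2), periostin (Postn) and SPARC (Sparc). They were found by symbol, and all 10 had a row. The set was chosen from the knockout against wild-type difference in these same data, so its values are a description and carry no test.

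Messenger RNA was sequenced from bone marrow macrophages of mice aged 6 weeks, either Ninj1+/+, called wild type here, or Ninj1-/-, called the knockout. Marrow cells of both genotypes received the macrophage growth factor M-CSF for 7 days. Activation, with interferon-gamma (20 ng/ml) and the bacterial product lipopolysaccharide (500 ng/ml), makes classically activated macrophages, so there is no resting group. Each genotype was registered as 1 sample, while the table holds 2 columns for each. The sources used here do not give how the Ninj1-/- allele was made, nor whether the columns stand for separate mice, cultures or libraries, so p-values measure only the spread between columns, which may be technical.

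Fibronectin and the fibrillar collagens form the fibres of connective tissue. Cells assemble secreted fibronectin into fibrils by pulling on it through integrins, and collagen fibrils are laid down on such a network. The leucine-rich proteoglycans bind collagen fibrils and set their spacing. Fibroblasts, osteoblasts and other mesenchymal cells are the main makers of fibrillar collagen, whereas fibronectin is also made by macrophages.

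The columns held 46798381 to 62684262 reads assigned to genes, and the deepest was a knockout column. Values below are normalized counts, in which 1 read is worth 1.26 to 1.62. The Ninj1 transcript, the check of the labels, stood at 28850 and 31158 in wild type and at 3519 and 4086 in the knockout, 12.7% of the wild-type mean. The macrophage label held. All 10 macrophage markers examined had means of at least 4417 normalized counts in both genotypes, with Adgre1 (the F4/80 antigen) at 237151 ± 4069 and 238832 ± 5380 normalized counts (SD, n = 2 columns per genotype). In bulk RNA, fewer cells of a type and less RNA per cell cannot be told apart, which touches every value that follows.

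In wild type the 10 genes were rare transcripts, together 764 and 1210 reads in the 2 columns. In the knockout they had 404 and 248. Fn1, Col1a1, Col1a2, Col3a1, Bgn, Fbln2, Postn and Sparc each had a knockout mean under 25% of wild type. Dcn and Lum did not follow them, and made up 84.2% and 90.3% of the reads of the set in the knockout, against at most 30.6% in wild type. The plot of every column by gene shows this split.

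**Figure D1:**
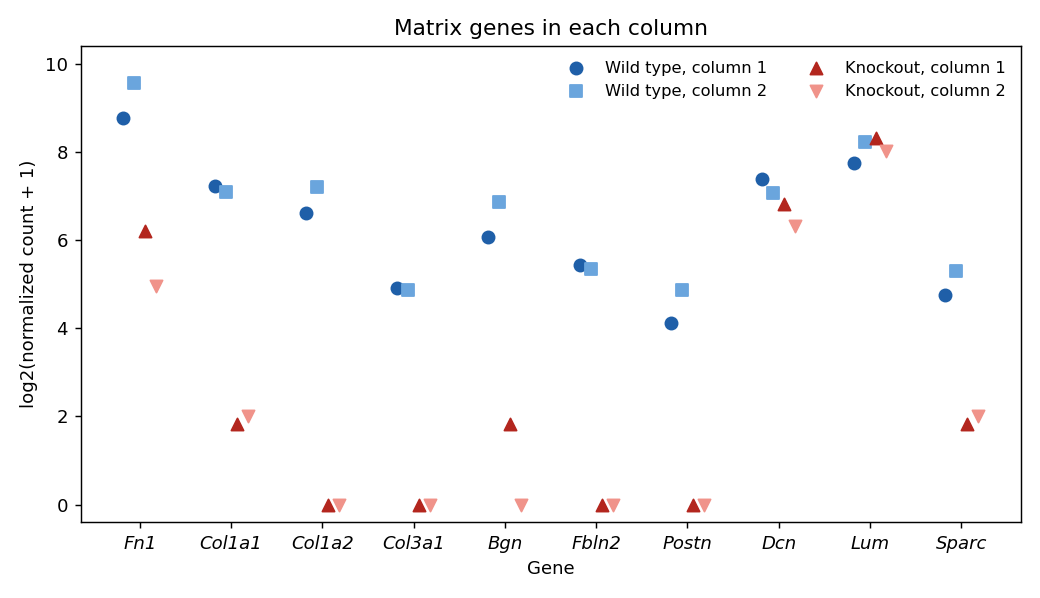
Normalized counts of the 10 matrix genes on a log2(value + 1) scale (vertical axis), with 1 point for each column of each genotype. Col1a2, Col3a1, Fbln2 and Postn sit at 0 in both knockout columns, while the 4 points of Lum lie together.

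The 4 genes without a single knockout read are Col1a2, Col3a1, Fbln2 and Postn, and their promoters are shown because they share this pattern. RefSeq (GRCm38.p6) gave promoter windows, each covering 250 bases before an annotated start and 50 after it, for 6 of the 10 genes and 7 starts. The windows below run 5′ to 3′ on the plus strand of chr6:4505368-4505667, chr1:45311288-45311587, chr6:91212514-91212813 and, for the second of 2 Postn starts, chr3:54360857-54361156. Capitals mark matches on either strand to 5 motifs. The TATA box was searched as TATAAA. The CCAAT box was searched by its own letters. The GC box was searched as GGGCGG. The AP-1 site was searched as TGANTCA. The palindromic SMAD element was searched as GTCTAGAC.
Col1a2: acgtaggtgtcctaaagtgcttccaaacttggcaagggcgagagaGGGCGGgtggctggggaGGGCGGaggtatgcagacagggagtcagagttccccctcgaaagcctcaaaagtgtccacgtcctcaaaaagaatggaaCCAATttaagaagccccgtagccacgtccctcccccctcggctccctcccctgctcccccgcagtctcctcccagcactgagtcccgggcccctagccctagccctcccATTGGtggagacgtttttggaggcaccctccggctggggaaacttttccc
Col3a1: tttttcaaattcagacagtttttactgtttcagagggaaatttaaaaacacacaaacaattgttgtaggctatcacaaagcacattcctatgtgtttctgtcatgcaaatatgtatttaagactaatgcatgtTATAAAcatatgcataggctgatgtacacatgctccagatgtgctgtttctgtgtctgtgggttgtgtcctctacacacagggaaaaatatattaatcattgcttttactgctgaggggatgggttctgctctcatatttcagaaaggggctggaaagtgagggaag
Fbln2: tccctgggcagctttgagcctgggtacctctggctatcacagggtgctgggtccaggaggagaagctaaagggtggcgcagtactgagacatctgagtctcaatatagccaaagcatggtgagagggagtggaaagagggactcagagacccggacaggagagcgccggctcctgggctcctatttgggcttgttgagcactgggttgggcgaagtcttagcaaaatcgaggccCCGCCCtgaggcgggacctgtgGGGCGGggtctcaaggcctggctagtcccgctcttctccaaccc
Postn: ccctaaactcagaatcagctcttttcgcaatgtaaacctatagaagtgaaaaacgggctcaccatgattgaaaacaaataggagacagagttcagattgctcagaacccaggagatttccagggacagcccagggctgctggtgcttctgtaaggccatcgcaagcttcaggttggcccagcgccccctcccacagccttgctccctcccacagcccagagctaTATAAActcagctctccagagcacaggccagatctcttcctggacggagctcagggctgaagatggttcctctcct

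No listed motif was common to all 4 windows. Col1a2 held 2 GC boxes and 2 CCAAT boxes, and Fbln2 held 2 GC boxes. Col3a1 held TATAAA 117 bases before its annotated start and Postn held it 26 bases before, while the other Postn start had a CCAAT box only. GGGCGG occurs in 35.7% of all 32851 promoter windows of the reference table, CCAAT in 37.4%, TATAAA in 13.6%, TGANTCA in 7.81% and GTCTAGAC in 0.213%. Of the 7 windows of the set, GGGCGG was in 3, CCAAT in 2 and TATAAA in 2, and neither of the other motifs was found. GC content also differed between windows, at 61.0% in Col1a2, 60.3% in Fbln2 and 37.7% in Col3a1, around a median of 52.7% for all windows. A match is a match of letters and not evidence that a factor binds there.

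Fibronectin was the most abundant of the genes that were low in the knockout. Fn1 (Entrez 14268; mm10 chromosome 1, 71585473 to 71653280) stood at 433 and 752 normalized counts in wild type and at 73.1 and 30.2 in the knockout. The genotypes did not overlap, although the columns of a genotype were themselves 1.74-fold apart in wild type and 2.42-fold in the knockout. The knockout mean was 51.7 ± 30.3 against 593 ± 226 in wild type (SD, n = 2 columns each), a ratio of 11.5-fold. The log2 ratio, knockout minus wild type on log2(value + 1), was -3.57 (SE 0.35). It was -4.20 without knockout column 1 and -2.95 without knockout column 2, so the size of the fold rests on which knockout column is read.

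Type I collagen is a trimer of alpha-1 and alpha-2 chains, encoded by Col1a1 on chromosome 11 (94936224 to 94953042) and Col1a2 on chromosome 6 (4505618 to 4541543). Col1a1 stood at 149 and 136 normalized counts in wild type, from 92 and 96 reads. In the knockout it had 2 reads in each column, or 2.52 and 3.02 normalized counts. Each pair of mates appears to be counted as 2 reads, because 71.9% to 74.6% of low counts were even, so those 2 reads may be 1 fragment. The ratio of wild type to knockout was 51.7-fold, with an exact 95% interval of 13.9 to 433 when 2 reads are taken as 1 fragment. Such intervals cover counting error only. They leave out the spread between columns and the choice of the genes from this contrast, so they are no test.

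Col1a2 followed the same course. It had 60 and 103 reads in wild type, or 97.4 and 146 normalized counts, and none in either knockout column. Against a floor of 3 reads per knockout column it was at least 29.2-fold lower, and at least 14.6-fold against a floor of 6 reads, which allows for counted mates. Per base of exon the Col1a1 level was 1.38 times that of Col1a2 in wild-type column 1 and 0.841 times in column 2, so neither chain was consistently the more abundant.

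Col3a1, the type III collagen that co-assembles with type I in fibrils, lies on chromosome 1 (45311538 to 45349706). It had 18 and 20 reads in wild type, or 29.2 and 28.3 normalized counts, and none in the knockout, at least 6.91-fold lower against the floor of 3 reads. The wild-type columns were close to each other, and the genotypes did not overlap.

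The matrix glycoproteins were about as scarce as Col3a1. Fbln2, whose product binds fibronectin and basement membrane proteins, had 26 and 28 reads in wild type and none in the knockout, at least 9.84-fold lower. Postn, a collagen-binding protein of healing and fibrotic tissue, had 10 and 20 reads in wild type and none in the knockout, at least 5.35-fold lower. With the floor at 6 reads these bounds are 4.92 and 2.68, and that of Col3a1 is 3.46. Sparc, a collagen-binding glycoprotein, had 16 and 27 reads in wild type and 2 in each knockout column. Its ratio was 12.1-fold on fragments, with an exact 95% interval of 2.97 to 106. The genotypes overlapped for none of the 3, and Postn had the fewest wild-type reads of the 10 genes.

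The proteoglycans split. Bgn, on chromosome X (73483601 to 73495936), had 66.5 and 115 normalized counts in wild type, from 41 and 81 reads. The knockout had 2 reads in column 1 and none in column 2. Its ratio was 67.1-fold, with an exact 95% interval of 11.6 to 2692 on fragments, and the log2 ratio of -5.56 was -6.46 without knockout column 1 and -4.65 without knockout column 2. Biglycan, decorin and lumican belong to 1 family, but the other two behaved differently.

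Dcn and Lum lie beside each other on chromosome 10, at 97479500 to 97518163 and 97565501 to 97572703, with 47337 bases between them. Dcn stood at 166 and 133 normalized counts in wild type and at 111 and 78.6 in the knockout. The knockout columns were both lower, and the gap between the genotypes was smaller than the gap between columns of either genotype. The log2 ratio was -0.66 (SE 0.28). Lum stood at 214 and 296 in wild type and at 318 and 260 in the knockout, where the genotypes overlapped. Its log2 ratio of 0.19 (SE 0.20) was -0.04 without wild-type column 1, so no direction can be given.

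Over the 10 genes the median log2 ratio was -4.69, or -3.20 with the genes at 0 placed at the floor of 3 reads, against -0.003 over the 12872 genes kept for testing. Both knockout columns lay below both wild-type columns for 9 of the 10, where the same held for 25.6% of genes kept. The set was selected on this contrast, so nothing is read from that count. A gene was kept with at least 20 reads in some column, and 7 of the 10 passed through wild type alone, so the filter itself favoured a fall in them. For them a log2 ratio depends on the value added before taking logs, which is why reads and bounds are given above.

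Levels were also compared between the genes after division by exon length, as normalized counts per kb. In wild type the order was Lum at 104, Dcn at 77.0, Fn1 at 69.9, Bgn at 37.4, Col1a1 at 24.0, Col1a2 at 22.7, Sparc at 11.8, Fbln2 at 8.55, Postn at 6.77 and Col3a1 at 5.17. The wild-type columns overlapped between neighbours for Dcn and Fn1, for Col1a1 and Col1a2, for Fbln2 and Postn and for Postn and Col3a1. The other neighbours in that order did not overlap. In the knockout the order was Lum at 118, Dcn at 48.9 and Fn1 at 6.09, with Sparc at 1.02 and every other gene lower. On the same scale the macrophage marker Adgre1 was at 73240 in wild type, so even lumican was scarce in these cultures.

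**Figure D2:**
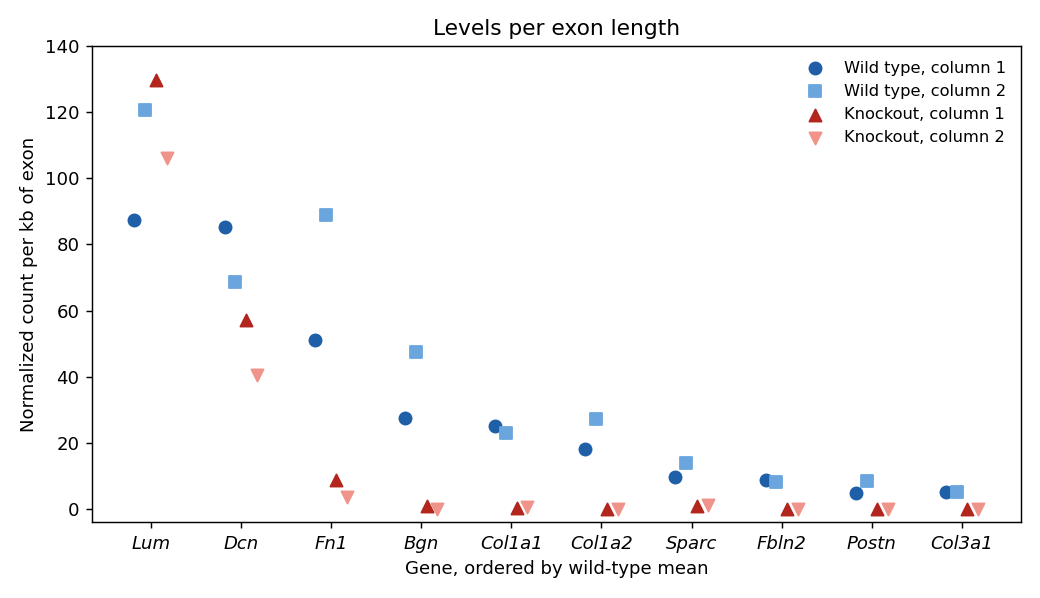
Normalized counts per kb of exon (vertical axis, linear from 0) for each column, with the genes in order of their wild-type mean. Lum and Dcn stay high in the knockout columns, and Fn1 drops from 69.9 to 6.09 on average.

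To see how many genes had the pattern of the collagens, genes were counted that had at least 10 reads in each wild-type column and at most 2 in each knockout column, thresholds set after the values were seen. There were 17 of 12915 genes with enough wild-type reads (0.132%), and 2 of 12831 in the opposite direction. The 17 hold 7 of the 10 matrix genes, which were selected on this contrast, so nothing is read from that count. Another 4 were on lists of related genes, namely Col5a1 and Col5a2 (type V collagen, which starts fibril formation), Col6a2 (a type VI collagen chain) and Cald1 (caldesmon, an actin-binding protein of contractile cells). The other 6 were Aebp1, which encodes a secreted collagen-binding protein, and Entpd3, Mroh6, Arhgap15os, 1700110C19Rik and Gm10941. All 7 genes with at least 10 reads in each wild-type column and none in the knockout were collagens, Fbln2 or Postn, and no gene had the reverse pattern. Of these 7, 4 belong to the selected set. With 1 column left out the counts ranged from 36 to 52 genes, and from 11 to 19 in the opposite direction.

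**Figure D3:**
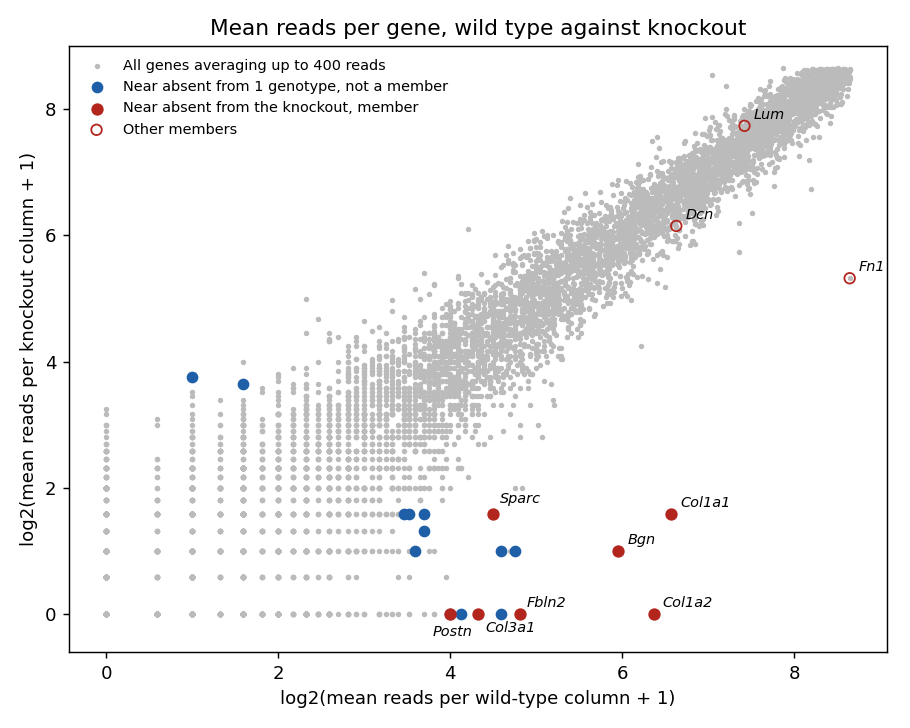
Mean reads per column in wild type (horizontal) and knockout (vertical), each as log2(value + 1), for genes averaging up to 400 reads. The coloured points along the lower edge are the 17 genes near absent from the knockout, and Lum and Dcn lie within the cloud of all genes.

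The genes whose profile over the 4 columns was nearest to those of Fn1 and Col1a1 were sought among genes reaching 100 reads in any column. Nearness was the Euclidean distance between log2 profiles, each set to 0 at its wild-type mean. For Fn1, among 10650 genes, they were Ninj1 itself (distance 1.41), Enpp2 (3.05), Tmem267 (3.20), Gem (3.56) and Steap4 (3.59). For Col1a1 they were Col1a2 (2.40), Fn1 (2.67), Ninj1 (3.21), Enpp2 (4.97) and Tmem267 (5.46). Col1a1, Bgn, Fbln2, Col3a1, Postn and Sparc stayed below 100 reads in every column, so they could not appear as neighbours. Scarcer genes may therefore lie nearer than those named. Enpp2, which encodes the lysophospholipid-producing enzyme autotaxin, stood at 299 and 199 normalized counts in wild type and at 58.0 and 89.2 in the knockout. It was lower in both knockout columns, with a log2 ratio of -1.75.

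Related matrix genes were tested from 6 lists with limma over all genes kept, at an adjusted p below 0.05. Among all genes 1.24% were called lower and 1.67% higher. Of 93 list genes kept, 9 were called lower and 4 higher. Among those called lower, Ctgf was kept through wild-type reads alone. Without wild-type column 1 none of these 13 stayed called, and without knockout column 1 only Itga9 and Ltbp3 did. Calls over all genes also dropped, from 215 higher and 160 lower to 18 and 3 without wild-type column 1 and to 26 and 18 without knockout column 1. The 13 log2 ratios kept their direction whichever column was left out. Without wild-type column 1, for example, that of Itga9 was -0.53 against -0.57 with all columns, and that of Plod1 was -0.41 against -0.47.

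None of the 13 further collagens kept was called by limma, although all 13 had a ratio below 0 and 4 an unadjusted p under 0.05. edgeR called 2 of them lower, Col5a2 and Col6a2, and DESeq2 none of the 3 it gave an adjusted p. Their median log2 ratio was -0.31. The abundant basement membrane collagens had close means, Col4a2 at 8766 ± 474 and 8290 ± 684 normalized counts and Col18a1 at 5880 ± 369 and 5799 ± 328 (SD, n = 2 columns). The scarcer collagens varied. Col6a1, a partner chain of Col6a2, had 10 and 27 reads in wild type and 19 and 16 in the knockout (log2 ratio -0.05), and the fibrillar Col27a1 had a log2 ratio of -0.52. Col5a2 had 14 and 32 reads in wild type and none in the knockout (adjusted p = 0.0519 by limma and 0.0198 by edgeR). Col6a2 had 10 and 20 against none (adjusted p = 0.109 by limma and 0.0395 by edgeR), and Col12a1 had 2 and 24 against none (adjusted p = 0.287). Of the 13, 5 were kept through wild-type reads alone.

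Of 16 matrix glycoproteins and basement membrane genes, 3 fell, none rose and 13 did not pass, with a median of -0.32. The matricellular protein gene Ctgf, now Ccn2, fell the furthest, from 84.4 and 134 to 22.7 and 27.2 normalized counts (log2 ratio -2.06, SE 0.41, limma adjusted p = 0.0196). Its genotypes did not overlap, and its adjusted p ran from 0.00186 to 0.0954 over the alternatives, missing the threshold without either wild-type column or without knockout column 1. Lamc1, the laminin gamma-1 chain, fell from 7579 ± 1105 to 5366 ± 245 (-0.49, adjusted p = 0.0136). Emilin2, an elastic fibre protein, fell from 13621 ± 798 to 10748 ± 1238 (-0.35, adjusted p = 0.0404). Neither call held when either column 1 was left out. Without wild-type column 1 the adjusted p were 0.119 for Lamc1 and 0.237 for Emilin2, and without knockout column 1 they were 0.108 and 0.441, where the log2 ratio of Emilin2 was -0.23. That of Emilin2 was also lost unfiltered and after correction for GC and length. The basement membrane linker Nid1 had 8 and 31 reads in wild type and none in the knockout (adjusted p = 0.0964 by limma and 0.0352 by edgeR). Like Ctgf, it was kept through wild-type reads alone, so the filter itself favoured a fall in both genes. Thbs3 was kept through knockout reads alone. Thbs1 and Spp1, the most abundant matrix transcripts of the list, had log2 ratios of 0.10 and 0.03.

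Of 7 other proteoglycans kept none was called by limma, edgeR or DESeq2, with 3 at an unadjusted p under 0.05 and a median of 0.16. The hyaluronan-binding proteoglycan Vcan had a log2 ratio of -0.24, and the heparan sulphate proteoglycans Gpc1 and Sdc2 had 0.35 and 0.57. Ogn, Omd and Prelp, relatives of biglycan, were at 0 reads in all 4 columns.

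Genes for collagen folding and crosslinking mostly did not pass, with 1 of 20 higher, 1 lower and a median of -0.10. Plod1, a lysyl hydroxylase of collagen, fell from 40726 ± 2459 to 29327 ± 1416 normalized counts (-0.47, SE 0.07, limma adjusted p = 0.00565). Ppib, a prolyl isomerase of collagen folding, rose from 4204 ± 146 to 5357 ± 413 (0.35, adjusted p = 0.0335). The Plod1 call was lost when either column 1 was left out, at adjusted p up to 0.0842. The same held for Ppib, at up to 0.374, and its call was also lost after correction for GC and length. Without knockout column 2 its log2 ratio was larger, at 0.43, with an adjusted p of 0.0508. Serpinh1, the collagen chaperone HSP47, had 8 and 21 reads in wild type and 0 and 1 in the knockout (limma adjusted p = 0.14). It was kept through wild-type reads alone. The crosslinking enzyme Lox, by contrast, stood at 594 ± 142 and 612 ± 75.4 normalized counts (log2 ratio 0.06).

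Receptors of fibronectin and collagen went both ways, with 3 of 17 higher, 2 lower, 12 not passing and a median of 0.10. The chains of the main fibronectin receptor, Itga5 and Itgb1, had log2 ratios of 0.10 each and did not pass. Itga9, a chain of an integrin that binds several matrix proteins, fell from 3865 ± 136 to 2603 ± 41.8 normalized counts (-0.57, limma adjusted p = 0.00487). Mrc1, the mannose receptor, which binds collagen as well as sugars, fell by 0.79 on the log2 scale (adjusted p = 0.0203). Itgb8, a chain of a receptor for latent TGF-beta, rose by 0.58 (adjusted p = 0.0183), Cd36 by 0.44 (adjusted p = 0.014) and the hyaluronan receptor Cd44 by 0.37 (adjusted p = 0.0246). None of the 5 calls held without wild-type column 1, and only that of Itga9 held without knockout column 1. The highest adjusted p over the alternatives ran from 0.053 for Itga9 to 0.349 for Cd44. Itgb8 was also lost without knockout column 2, and Cd36 after correction for GC and length. The collagen-sensing kinase Ddr2 had 6 and 12 reads in wild type and none in the knockout, too few to be tested.

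TGF-beta induces fibronectin and type I collagen in mesenchymal cells. Of 20 genes of its pathway kept, 3 fell, none rose and 17 did not pass, with a median of -0.04. Tgfb1 itself had a log2 ratio of -0.12. The LTBP family genes Ltbp2 (-0.75, limma adjusted p = 0.0453) and Ltbp3 (-0.52, adjusted p = 0.0492) and the signal transducer Smad3 (-0.51, adjusted p = 0.0346) fell. All 3 calls were narrow, although DESeq2 also called Ltbp3 and Smad3. Each was lost unfiltered, after correction for GC and length, and without wild-type column 1 or knockout column 2, where the log2 ratio of Ltbp3 was -0.34 without the latter. Ltbp2 and Smad3 were lost without knockout column 1 too. edgeR called only Smad3, and their highest adjusted p over the alternatives were 0.3, 0.291 and 0.26.

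**Figure D4:**
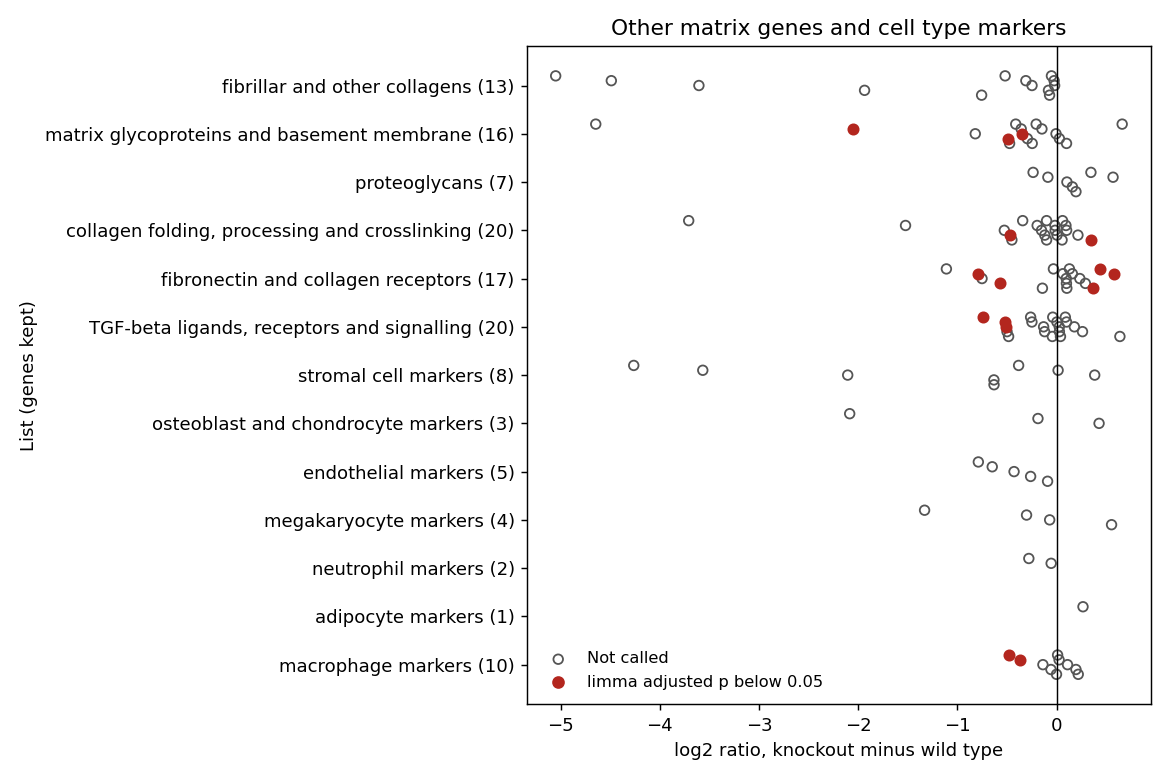
Log2 ratios, knockout minus wild type, of the genes kept from 6 lists of related matrix genes and 7 lists of cell type markers (horizontal axis), with red points for limma adjusted p below 0.05. Most genes lie near 0, and the points at the far left are scarce genes such as Col5a2, Col6a2, Nid1 and Cald1.

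Absence of reads was also counted over the lists. Of 139 listed matrix genes in the table, 19 had reads in wild type and none in the knockout, and none had the reverse. Over all 17270 genes the shares were 3.61% and 2.29%, and over these lists 13.7% and 0%. Over the 7 lists of cell type markers they were 15.5% and 5.17%, so a raised share absent from the knockout was also seen there. The 9 markers concerned were mostly stromal: Pdgfra, Thy1, Cxcl12, Cnn1, Mgp and Igfbp5, with Dmp1, Adipoq and Lep. Most of the 19 matrix genes had few reads in wild type, and 3 had at least 10 in each column, while none of the 9 markers did.

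Markers of other cell types were read beside these values. Of 20 stromal markers 18 had a row and 8 were kept. limma called none of them and edgeR called Cald1 lower, with 4 at an unadjusted p under 0.05, 6 ratios below 0 and a median of -0.63. Such a limma p was met by 19.8% of all genes kept, and a ratio below 0 by 50.7%. Their summed level was 868 and 977 normalized counts in wild type and 736 and 727 in the knockout. Without Tagln and Acta2, which gave most of it, the sums were 279 and 405 against 228 and 159. Cald1 had 14 and 38 reads in wild type and 2 and 0 in the knockout (adjusted p = 0.0584 by limma and 0.0295 by edgeR). Igfbp7 had 20 and 43 against 8 and 6 (limma adjusted p = 0.0902), and Fstl1, another secreted stromal protein, had 4 and 46 against 2 and 0 (limma adjusted p = 0.171). Cald1, Igfbp7 and Fstl1 were the 3 markers of this list kept through wild-type reads alone, so the filter itself favoured a fall in them. Tagln and Cspg4 had log2 ratios above 0, at 0.015 and 0.384.

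Several defining stromal markers were at or near 0 in every column. Pdgfra and Thy1 had 0 and 4 reads in wild type and none in the knockout, Cxcl12 had 4 and 0 against none, and Myl9 had none in any column. The mesenchymal receptor gene Pdgfrb was not near 0, at 23 and 20 reads in wild type and 20 and 16 in the knockout (log2 ratio -0.38, limma adjusted p = 0.732). The osteoblast genes Sp7 and Bglap were at 0 in wild type. Among 3 osteoblast and chondrocyte markers kept none was called by limma or edgeR, with 2 at an unadjusted limma p under 0.05. These were Sox9, at 28 and 26 reads against 4 and 10 (limma adjusted p = 0.117), and Runx2, at a log2 ratio of 0.43 (limma adjusted p = 0.125). Sox9 was kept through wild-type reads alone. The osteoblast and chondrocyte list summed to 550 and 605 normalized counts in wild type and to 649 and 694 in the knockout, with a median of -0.19. Without Runx2 and Comp, its most abundant genes, the sums were 51.9 and 50.9 against 10.1 and 15.1. Transcripts of the stromal list were few in every column and fewer in its knockout sums. The part of either list in the matrix values was not tested.

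None of 5 endothelial, 4 megakaryocyte, 2 neutrophil or 1 adipocyte markers kept was called by limma or edgeR, with 2, 0, 0 and 0 of them at an unadjusted p under 0.05. Their medians were -0.43, -0.19, -0.17 and 0.27, and their sums were 17976 and 15302 against 14891 and 14482, 643 and 631 against 648 and 591, 299 and 388 against 329 and 305, and 217 and 314 against 313 and 290 normalized counts. The endothelial sum rested on Kdr and Pecam1. Without them it was 2275 and 1675 in wild type against 1336 and 1556 in the knockout. Of the 10 macrophage markers Itgam (-0.37, limma adjusted p = 0.0419) and the efferocytosis receptor Mertk (-0.48, adjusted p = 0.0285) fell, and 8 did not pass. Neither call held without wild-type column 1 or either knockout column, at adjusted p up to 0.448 and 0.187, and without wild-type column 1 the log2 ratio of Mertk was -0.29. That of Itgam was also lost unfiltered and after correction for GC and length. The macrophage list summed to 1065109 and 1143255 normalized counts in wild type and to 1136052 and 1153449 in the knockout. The summed level of the knockout was thus within the wild-type range or just above it. That sum rested on Cd14 and Lyz2, the most abundant of the list. Without them the sums were 595498 and 601314 in wild type against 560650 and 565002, lower in both knockout columns.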

How the data were processed

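The deposited table holds a normalized signal for each gene. The deposited values behave as reads scaled by 1 factor in each column: 100% of values are whole multiples of a column's smallest step within 0.01 reads. The mouse build mm10 and StringTie appear in the submitters' processing notes without roles; aligner, counter and annotation: not given in the sources used here. Only 2 of the 4 column names hold KO, and the other two were read as wild type. Of 17271 rows, 1 named no gene (0.0272% to 0.0366% of a column) and 19 symbols had become dates.

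The 12872 genes that reached 20 reads in any column were fitted together by limma 3.58.1 (trended variance) on log2(normalized count + 1), and p-values were adjusted by the Benjamini-Hochberg method. Residual degrees of freedom were 2 and the prior added 12.2. The columns of a genotype differed beyond counting noise (chi-square per gene 18.8 and 12.5). Alternatives were edgeR 4.0.16 and DESeq2 1.42.0 on the recovered reads, TMM scaling, a pseudocount of 0.1, no filter or at least 100 reads, correction for GC and length (15292 genes had both values), a block on the column number, and each column left out, taking a lone column to have the spread of the other genotype's pair. The deviations of columns with equal numbers had a correlation of -0.0866. A single correlation cannot settle whether those columns were paired.

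The members and lists were chosen with earlier results of these data known. Text names each member, every called list gene, up to 3 further genes per list with the largest ratios, and the 5 nearest profiles; further genes were named after their values were seen. Listed genes were matched by Entrez identifier, and those without a row were not analysed here. Exon lengths are from GENCODE M21, positions and promoters from RefSeq GRCm38.p6. Each fit was first tested on simulated data. Software was Python 3.11.15 (scipy 1.17.1, pandas 2.3.3, matplotlib 3.10.9) and R 4.3.3.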

Additional observations from a re-analysis of the deposited data

How the results depend on the processing

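limma called 215 genes higher and 160 lower. A replicate block on the column number gave 322 and 280, DESeq2 341 higher, no filter 122 and 100, and correction for GC and length 93 lower. Leaving out a column gave 18 to 780 higher and 3 to 588 lower.

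Of related matrix genes 4 were called higher and 9 lower, ranging from 0 to 7 and from 0 to 11 without a column. Correction for GC and length left 5 lower, and a minimum of 100 reads left 6. The cause was not tested. DESeq2 called 5 higher and 7 lower, edgeR 4 and 10. Markers called lower went from 2 to 1 with that correction, to 4 with the replicate block, and to between 0 and 4 without a column, where 0 to 4 were called higher.

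The members' median of -4.69 was -5.74 by edgeR, -5.88 by DESeq2 and -6.53 with a pseudocount of 0.1, because genes at 0 take their ratio from the added value. At least 100 reads left 4 members, 3 of them lower, with a median of -2.12. Leaving out a column kept 6 to 10 members lower, at medians of -5.17 to -4.57, and 3 members were not kept without wild-type column 2. Stricter rules for near absence gave 7 genes against 0 and 4 against 0, and leaving out a column 36 to 52 against 11 to 19. Depth limits Col3a1, Postn and Sparc most, at up to 27 reads in a column. For single members, 87 of the other values moved by less than the spread between columns and 24 by more. No called value changed sign.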
